A study of Homo sapiens with 15 samples.

Results

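The light-strand origin of replication (OL) of human mitochondrial DNA and the 5 tRNA genes around it, MT-TW, MT-TA, MT-TN, MT-TC and MT-TY, were examined at single-base resolution in the P1 titration of K562 cells. K562 is an established chronic myeloid leukemia line, here labelled wild type. Members were chosen by position alone, as all positions of the mitochondrial genome, on both strands, from the first base of MT-TW to the last base before MT-CO1. This gave 392 of the 16571 positions of the deposited mitochondrial files and 6262 of their 286260 entries of a position and strand with termini. The 15 samples were 3 biological replicates each of nuclei left without P1 (untreated) or digested with 0.01, 0.1, 1 or 10 U of nuclease P1. All samples shared formaldehyde crosslinking, and the mitochondria were those that sediment with crosslinked nuclei. P1 cuts single-stranded DNA and leaves a 3′-OH end, and SSiNGLe tails and sequences each 3′-OH end, so that each count is 1 terminus read at a base and strand. Breaks already present in the DNA give termini too, and the untreated samples measure them.

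In the strand-displacement model of mitochondrial replication, synthesis of the new heavy (H) strand displaces the parental H strand, which stays single-stranded until synthesis of the light (L) strand starts from it. L-strand synthesis starts once OL has been exposed and has folded into a stem-loop, in whose loop the mitochondrial RNA polymerase lays down a primer. OL lies in a cluster of tRNA genes, and the tRNAs for tryptophan, alanine, asparagine, cysteine and tyrosine that these genes encode serve mitochondrial translation. The question was how P1-derived termini on the H and L strands were spread over the origin and over the tRNA genes beside it.

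In the GENCODE annotation of GRCh37, MT-TW lay on the plus strand and ended at position 5579. The other genes lay on the minus strand, MT-TA at 5587 to 5655, MT-TN at 5657 to 5729, MT-TC at 5761 to 5826 and MT-TY at 5826 to 5891. The origin segment was the 31 bases between MT-TN and MT-TC, from 5730 to 5760. An inverted repeat with 11 paired bases in each arm and a loop of 12 bases spanned chrM:5730-5763 of the reference and ran 3 bases into MT-TC. Both strands of this repeat, shown because the results below separate its arms from its loop, read as follows from 5′ to 3′ with the loop in capitals:
light strand: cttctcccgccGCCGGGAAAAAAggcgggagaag
heavy strand: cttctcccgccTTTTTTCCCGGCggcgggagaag
The arms were the same on both strands and the loop was not, with its run of T on the heavy strand. The origin segment had a GC content of 67.7%, against 35.3% to 45.5% for the 5 tRNA genes.

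The samples held between 561 and 7806 termini in this region, which was 2.13% to 3.57% of the termini outside the non-coding region (NCR, the stretch with the D-loop, with the ends that the methods of the study give). Depth was lowest at 10 U, with 29622 to 57127 mitochondrial termini per sample, and the 10 U libraries held 561 to 974 termini here. Untreated replicate 1 was also shallow, with 796. The share of mitochondrial termini that lay outside the NCR went from 29.9% to 33.3% in the untreated samples to 59.0% to 61.9% at 1 U and 69.3% to 76.2% at 10 U. Shares below are therefore given per termini outside the NCR unless the total is named. The NCR itself changed with P1, so a share of either total is a relative measure. The base signature of the reads put the files' numbering 1 base above the reference in this region. Moving the genes by that base changed no call of a member. Reads from a nuclear copy on chromosome 1 (GRCh37, 566062 to 566453, 99.2% identical) could map here. The nuclear files held 0 to 7 termini at that copy per sample. Per the methods of the study, those files count reads that map uniquely over the nuclear and mitochondrial genomes together. Reads that fit both places would be absent from them, so this count does not limit how many such reads map here.

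P1 shifted the termini of the region to the H strand. The H/L ratio, the count of H-strand termini over that of L-strand termini, was 1.36, 1.185 and 1.30 in the 3 untreated samples and 1.30, 1.52 and 1.47 at 0.01 U. It was 4.37, 4.37 and 5.68 at 0.1 U, 5.997, 8.35 and 11.8 at 1 U, and 3.76, 4.35 and 4.45 with 10 U. No sample at 0.1 U or above overlapped the untreated samples. Against the untreated sample of the same number the ratio rose 3.72-fold at 0.1 U, 6.55-fold at 1 U and 3.26-fold at 10 U, in 3 of 3 replicates each, whereas at 0.01 U the factor was 1.11 and 2 of 3 replicates were higher. The spread over the 5 amounts had p = 0.000208 in an exact permutation test within replicate numbers (adjusted over 8 results, 0.000333). With each position and strand counted once, however many termini it held, the factor was 1.775 at 1 U and 2.02 at 10 U. Such a count has the number of positions as its ceiling and depends on depth. At 1 U, 86.65% ± 1.15 of the H-strand positions of the region held termini, and 40.99% ± 5.38 of its L-strand positions (SD, n = 3). At the lower depth of 10 U these were 43.11% ± 6.44 and 17.86% ± 2.90. Whether ceiling or depth raised the factor at 10 U above that at 1 U was not tested. These 2 factors therefore do not show at which amount the shift was larger. The exact test over the amounts covers all amounts at once, since an exact test of 3 pairs alone reaches p = 0.25 at the lowest.

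As shares of the termini outside the NCR, the H strand of the region rose and the L strand fell. H-strand termini of the region made up 123.9 ± 2.93 per 10000 termini outside the NCR in untreated samples (SD, n = 3), 279.3 ± 8.61 with 0.1 U, 294.3 ± 31.2 at 1 U and 198.0 ± 22.0 with 10 U. L-strand termini went the other way, from 96.8 ± 6.26 untreated to 58.8 ± 6.86 with 0.1 U, 35.9 ± 10.5 with 1 U and 47.4 ± 4.84 with 10 U. The exact permutation p over the amounts was 0.000139 for the H strand and 0.000278 for the L strand (adjusted, 0.000333 and 0.000370). At 0.01 U the H-strand share was 133.6 ± 3.54 and the L-strand share 93.6 ± 5.46. With all mitochondrial termini as the total the L-strand factor against untreated was 0.681 at 1 U and 1.11 at 10 U, so the fall at 10 U depends on the total. The fall at 0.1 and 1 U was shared with the L strand of the other mitochondrial genes (given with the gene tests). The total holds both strands, so a gain on the H strand lowers L-strand shares even at unchanged L-strand counts. In the rest of the genome outside the NCR the H/L ratio was 0.917 ± 0.059 untreated and 4.09 ± 1.40 at 1 U. The lower L-strand shares, here and in the gene and bin tests, therefore do not show a loss of L-strand termini.

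The region was more H-biased than the rest of the genome outside the NCR before any P1, and the difference grew. Its H/L ratio over that of the rest was 1.401 ± 0.036 in untreated samples, 1.46 ± 0.081 at 0.01 U, 2.29 ± 0.13 with 0.1 U, 2.13 ± 0.027 at 1 U and 2.96 ± 0.46 with 10 U (SD, n = 3, exact permutation p = 0.000208, adjusted 0.000333, a comparison added after seeing the data). At 1 U the rest of the genome varied between replicates in the same way as the region, with H/L ratios from 2.77 to 5.56, and the ratio of the 2 lay between 2.11 and 2.17. The rest is mostly protein and rRNA genes, and a rise up to 1 U was shared with other tRNA genes. Over the 17 other tRNA genes the median H/L ratio, with 0.5 added to each count, was 1.10 untreated, 3.49 with 0.1 U and 6.60 at 1 U. It was 1.305 with 10 U. The medians of the 5 member genes were 2.03, 10.2, 21.4 and 9.03. Per base, the H strand of the region carried 1.02 ± 0.025 times the termini of the rest in untreated samples, 1.64 ± 0.035 times with 0.1 U, 1.47 ± 0.13 times at 1 U and 1.33 ± 0.076 times with 10 U, with an exact permutation p of 6.94e-05, the smallest that this test can give (adjusted, 0.000333). The L strand carried 0.728 ± 0.034 times the termini of the rest untreated, 0.719 ± 0.035 times with 0.1 U, 0.690 ± 0.053 times at 1 U and 0.456 ± 0.079 times with 10 U (exact permutation p = 0.0294, adjusted 0.0336). Leaving out any replicate number ended this last call, with exact p from 0.117 to 0.150.

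The members covered a wide range of strand bias before P1. MT-TC, the cysteine tRNA gene directly beside the origin, was the most H-biased of all 37 genes and the origin in untreated samples, with an H/L ratio of 4.14 ± 0.38, and MT-TW, the tryptophan gene, came next with 3.06 ± 1.81. MT-TA, the alanine gene, had 2.03 ± 0.11 and MT-TY, the tyrosine gene, 1.24 ± 0.37. MT-TN, the asparagine gene on the other side of the origin, had 0.757 ± 0.13, and the origin had 0.793 ± 0.050. MT-TC lay above MT-TA in all 3 untreated samples. MT-TW changed places with each of them between replicates, as did MT-TN with the origin, so MT-TW did not differ from MT-TC or MT-TA beyond its spread, nor MT-TN from the origin. MT-TY stood between these sets in all 3 untreated samples. The untreated MT-TW value rests on few L-strand termini, with H over L counts of 51 over 10, 106 over 64 and 116 over 48.

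From 0.1 U on the mean H/L ratio of each of the 5 tRNA genes was above its untreated mean, and that of the origin was so at 0.1 and 1 U but not at 10 U. At 1 U the H/L ratio was 26.6 ± 12.4 for MT-TW, 23.9 ± 7.31 for MT-TC, 21.5 ± 8.43 for MT-TA, 6.96 ± 3.02 for MT-TY, 4.84 ± 1.61 for MT-TN and 2.48 ± 0.69 for the origin (SD, n = 3). At 10 U it was 13.9 ± 6.06 for MT-TC, 12.4 ± 8.71 for MT-TW, 9.34 ± 4.16 for MT-TA, 3.93 ± 0.93 for MT-TY and 1.60 ± 0.93 for MT-TN. The origin had 0.750, 0.586 and 0.619 with 10 U, below its untreated values of 0.851, 0.763 and 0.766 in 3 of 3 replicates. The 10 U values rest on few termini, with H over L counts of 18 over 24, 17 over 29 and 13 over 21. Untreated counts were 57 over 67, 177 over 232 and 177 over 231. Whether the drop exceeds the error of such counts was not tested. The origin stood last of the 6 in every sample from 0.1 U on. At 10 U this order rests on the low counts above, and in replicate 1 MT-TN was close, with 32 over 37. Among all 38 features its H/L ratio, with 0.5 added to each count, ranked 29 untreated, 35 at 1 U and 38 with 10 U, counted from the most H-biased. MT-TW, MT-TC, MT-TL1 and MT-TA held the first 4 ranks at 1 U, and the median over the 17 other tRNA genes was 6.60, that over the 13 protein genes 4.98 and that over the 2 rRNA genes 1.34.

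**Figure D1:**
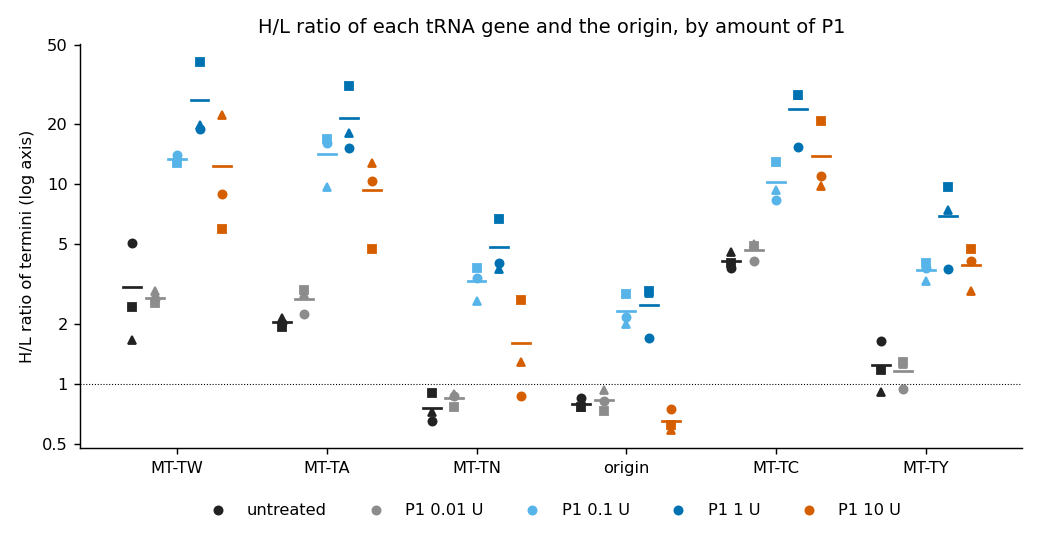
H/L ratio of termini on a log axis for the 5 tRNA genes and the origin, in genome order. Points are samples, colours amounts of P1, shapes replicate numbers (circle 1, triangle 2, square 3) and bars the means of 3 samples. The mean of each member is highest at 1 U and lower at 10 U, where the origin alone, at 0.65, lies below its untreated mean of 0.79. The 10 U values of the origin rest on 13 to 29 termini per strand and sample.

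Termini of the origin were set against those of the tRNA genes in the same library, which needs no total. On the H strand this ratio fell at each step of the titration from 0.1 U on. Termini per base of the origin over those of the 5 genes together, with 0.5 added to each count, were 1.81, 1.35 and 1.38 on the untreated H strand, 1.44, 1.51 and 1.27 at 0.01 U and 1.08, 1.14 and 1.12 at 0.1 U. They were 0.694, 0.798 and 0.597 at 1 U and 0.403, 0.285 and 0.386 with 10 U. The groups from 0.1 U on did not overlap each other or the untreated group. Against untreated, the ratio was 0.741 times at 0.1 U, 0.460 times at 1 U and 0.235 times with 10 U (exact permutation p = 0.000208 over the amounts, adjusted 0.000333). With MT-TN and MT-TC alone as the flank the factor at 10 U was 0.246. With each position counted once it was 0.712 at 1 U and 0.637 at 10 U (exact permutation p = 0.00507). The origin's own H-strand share of termini outside the NCR was 1.78 times untreated at 0.1 U, with 3 of 3 replicates higher. This share was 1.16 times untreated at 1 U, with 2 of 3 higher, and 0.405 times at 10 U, with 0 of 3 higher. The lower ratio at 0.1 and 1 U therefore does not show a loss of origin termini.

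On the other strand no spread passed the test. The L strand of the origin carried 3.29 ± 0.69 times the termini per base of the 5 tRNA genes untreated, 3.28 ± 0.23 times at 0.01 U, 3.44 ± 0.18 times with 0.1 U, 3.57 ± 0.13 times at 1 U and 3.13 ± 0.86 times with 10 U (SD, n = 3, exact permutation p = 0.761). The 3 factors against the untreated sample of the same number lay from 0.893 to 1.24 at 1 U and from 0.659 to 1.35 at 10 U. The smallest change that the test could detect was not worked out, so the result does not show that the ratio stayed the same. Termini were rare where either of the first 2 read bases was T, and 83.9% of the origin's H-strand positions and 67.7% of its L-strand positions were free of this limit, against 51.5% to 63.8% and 39.7% to 57.6% for the 5 genes. Over such positions only, the H-strand factor was 0.453 at 1 U and 0.227 with 10 U.

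**Figure D2:**
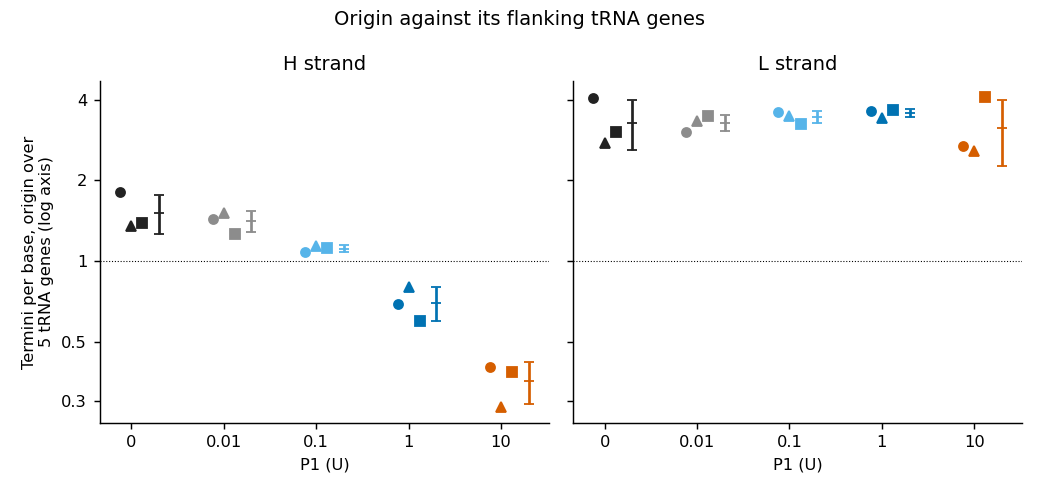
Termini per base in the origin over those in the 5 tRNA genes, on a log axis, against the amount of P1, for the H strand (left) and the L strand (right). Points are samples with shapes for replicate numbers, and the bars beside them are mean ± SD (n = 3). On the H strand the ratio goes from 1.52 untreated to 0.358 at 10 U, and on the L strand it stays between 2.59 and 4.11 in all 15 samples.

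Within the origin the termini of the loop and of each arm were counted separately, without a test between them. For this the parts were placed 1 base above their reference positions, following the base signature. The 5 genes were moved in the same way for the values relative to them. The main values of the genes and the origin segment were taken without this move. On the H strand the loop held 66.9, 46.9 and 52.1 termini per base per 1000000 termini outside the NCR, a measure called density here, in the untreated samples and 106, 121 and 126 at 0.1 U. It held 67.5, 79.1 and 67.6 at 1 U and 10.7, 7.66 and 12.2 with 10 U. The loop was thus above the untreated level in every 0.1 U sample and below it in every 10 U sample, where the counts were 4, 4 and 3 termini against 30, 86 and 91. Relative to the 5 tRNA genes of the same sample the loop was at 2.02 ± 0.42 untreated, 1.77 ± 0.14 with 0.1 U, 1.04 ± 0.20 at 1 U and 0.233 ± 0.039 with 10 U.

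At 0.1 U the arm on the MT-TC side had a higher density than untreated in 3 of 3 replicates, and the arm on the MT-TN side in 1 of 3. The arm on the MT-TN side had an H-strand density of 22.9 ± 1.57 untreated, 24.6 ± 6.79 with 0.1 U, 12.5 ± 3.46 at 1 U and 23.1 ± 2.76 with 10 U. The arm on the MT-TC side had 38.4 ± 2.67, 70.4 ± 3.54, 61.9 ± 3.14 and 32.2 ± 27.3, the last from only 4 to 14 termini a sample. Relative to the 5 genes the arm on the MT-TC side was at 1.41 ± 0.13 untreated, 1.06 ± 0.039 with 0.1 U, 0.892 ± 0.061 at 1 U and 0.650 ± 0.48 with 10 U. The arm on the MT-TN side was at 0.849 ± 0.089, 0.375 ± 0.11, 0.183 ± 0.054 and 0.501 ± 0.076. The L-strand loop went from 68.9 ± 8.14 untreated to 45.0 ± 9.24 at 0.1 U and 27.7 ± 10.6 at 1 U, and stood at 50.5 ± 6.39 at 10 U. Relative to the 5 genes the L-strand loop was at 4.24 ± 1.06 untreated and 5.90 ± 0.99 with 10 U. These parts were taken after seeing the data and are given without a test.

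**Figure D3:**
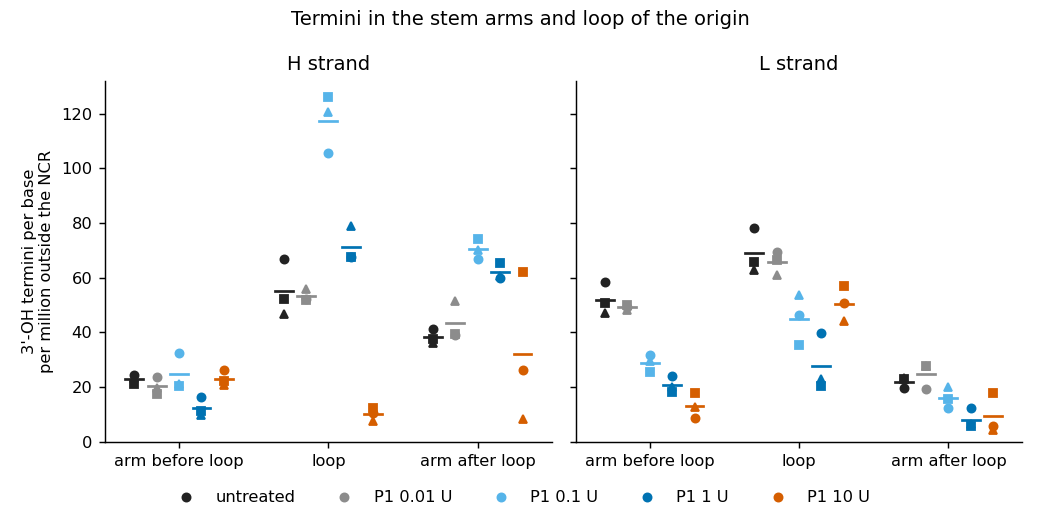
Density (termini per base per 1000000 termini outside the NCR) in the arm before the loop (MT-TN side), the loop and the arm after it (MT-TC side), for the H strand (left) and the L strand (right). Points are samples, colours amounts of P1, shapes replicate numbers and bars means of 3 samples. On the H strand the loop peaks at 0.1 U, with a mean of 117, and is at 10.2 at 10 U, while on the L strand it is at 68.9 untreated and 50.5 with 10 U.

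Tests over all 38 features, the 37 mitochondrial genes and the origin on each strand, placed these changes beside the background. In edgeR's quasi-likelihood test with Benjamini-Hochberg adjustment over both strands, 0 of 76 features were called at 0.01 U (3 had an unadjusted p below 0.05 and none was a member, and DESeq2 called 0 and had 0 below that p). At 0.1 U all 5 tRNA genes and the origin were higher on the H strand, where 89.5% of the 38 features were, and all 6 were lower on the L strand, where 100% were. At 1 U the 5 tRNA genes were higher on the H strand and the origin was not called, again against 89.5% of features called higher, and all 6 were lower on the L strand against 100%. Counts this close to the background say nothing particular about the members. The origin was among the 2 features with neither call at 1 U, the other being MT-TS1, and the 2 rRNA genes were called lower. At 0.1 U the L-strand call of MT-TC was lost in DESeq2 (adjusted p = 0.149) and, with edgeR, without replicate 3 (adjusted p = 0.178), and those of MT-TW and MT-TY without replicate 2 (adjusted p = 0.104 and 0.0736). With all mitochondrial termini as the library size 5 of the 6 members were lower on the L strand at 0.1 and at 1 U, the exceptions being MT-TC at 0.1 U (log2 change -0.49, edgeR adjusted p = 0.0509) and the origin at 1 U (-0.47, 0.0782).

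Among the 5 member genes the H-strand gains at 1 U were largest for MT-TA and MT-TW, the genes on the far side of MT-TN from the origin. MT-TA and MT-TW ranked 34 and 33 from the lowest of the 38 features. Larger log2 changes were those of MT-TR (2.27), MT-TP (2.11), MT-TT (2.05) and MT-TQ (1.94). MT-TA had a log2 change of 1.86 ± 0.14 (SE) with an edgeR adjusted p of 3.74e-08, and MT-TW 1.82 ± 0.20 with an adjusted p of 8.24e-07. MT-TY had 1.02 ± 0.13, MT-TC 0.99 ± 0.15 and MT-TN 0.81 ± 0.15. The median of the 5 was 1.02, the same as the median over all 38 features, and that of the 17 other tRNA genes was 1.59. The origin had 0.24 ± 0.15 with an edgeR adjusted p of 0.129, rank 4 from the lowest of the 38. With all mitochondrial termini as the library size it was called higher, with a log2 change of 1.14. The 6 L-strand changes lay between -1.79 for MT-TN, the lowest of the 38, and -1.36 for the origin, beside a median over all features of -1.405.

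At 10 U the origin was called lower on the H strand. Its H-strand log2 change was -1.31 ± 0.21 with an edgeR adjusted p of 0.000287, the lowest of the 38 features, of which 10.5% were called lower. Of the 5 tRNA genes, 4 were called higher on the H strand against 52.6% of features. These were MT-TW at 1.62 ± 0.22, MT-TC at 0.97 ± 0.17, MT-TA at 0.70 ± 0.15 and MT-TY at 0.61 ± 0.15, while MT-TN had 0.06 ± 0.19 and was not called. MT-TN was called higher with all mitochondrial termini as the library size, with a log2 change of 1.25 and an edgeR adjusted p of 4.07e-05. On the L strand 4 of the 5 genes and the origin were called lower, against 47.4% of features, with changes from -1.43 for MT-TA to -0.56 for MT-TW, which was not called. These calls depend on the total. With all mitochondrial termini as the library size the origin's H-strand change was -0.13 with an edgeR adjusted p of 0.702, and no member was called lower on the L strand. Without replicate 2 only 1 member was called lower there.

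**Figure D4:**
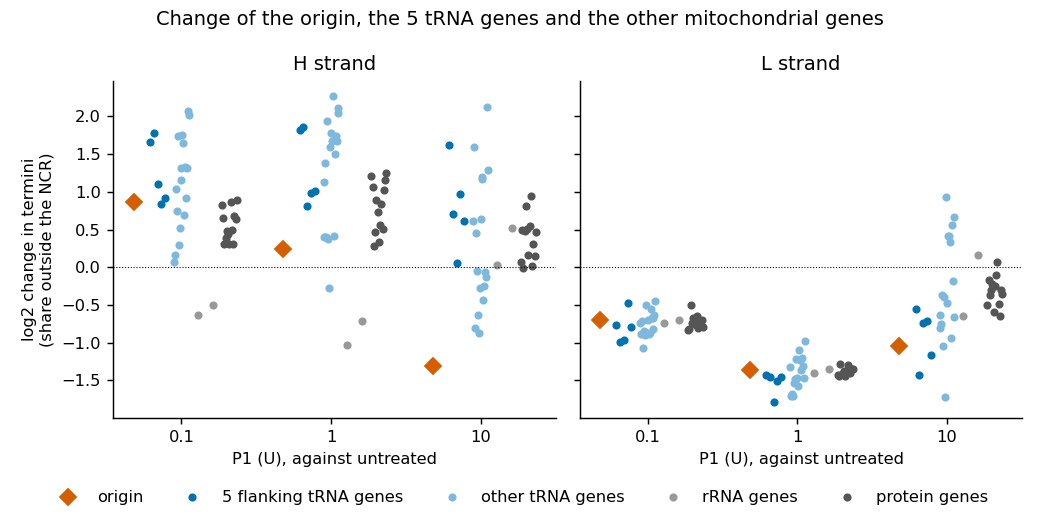
log2 change against untreated in termini per termini outside the NCR, from edgeR, for the 38 features on the H strand (left) and the L strand (right) at 0.1, 1 and 10 U. Diamonds are the origin and dots are single genes, coloured by class. On the H strand the origin is at 0.86, 0.24 and -1.31, the last being the lowest of the 38 features, while the median of its 5 flanking tRNA genes is at 1.11, 1.02 and 0.70.

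Under the index of the study, the share of all mitochondrial termini in a treated sample over that in the untreated sample of the same number, the H strand of the region stood at 0.887 ± 0.22 at 0.01 U, 2.25 ± 0.30 with 0.1 U, 4.48 ± 0.54 at 1 U and 3.64 ± 0.37 with 10 U (SD, n = 3). The origin stood at 1.79 ± 0.36, 2.21 ± 0.38 and 0.940 ± 0.23 at 0.1, 1 and 10 U. At 1 U the 5 tRNA genes ranged from 3.49 ± 0.74 for MT-TN to 6.99 ± 1.72 for MT-TA, and at 10 U from 2.43 ± 0.18 for MT-TN to 6.96 ± 3.04 for MT-TW. The L-strand index of the region was 0.607 ± 0.10 at 0.1 U, 0.706 ± 0.24 at 1 U and 1.12 ± 0.15 with 10 U.

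In bins of 10 bases, 30 of the 38 H-strand bins of the region were called higher at 1 U (edgeR, all bins outside the NCR in 1 fit), against 58% of all bins, and 1 was lower, against 11.7%. The lower bin was 5731 to 5740, in the stem arm on the MT-TN side, with a log2 change of -0.98 ± 0.30 and an adjusted p of 0.00341. It was not called in DESeq2, with TMM scaling, with all mitochondrial termini as the library size or without replicate 2. The largest gain was in bin 5651 to 5660, at the junction of MT-TA and MT-TN, with 3.04 ± 0.30. The next was bin 5641 to 5650 in MT-TA, with 2.92 ± 0.38, and bin 5881 to 5890 in MT-TY had 2.91 ± 0.29. On the L strand 28 of 38 bins were lower at 1 U, against 82.4%.

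At 10 U, 14 H-strand bins were higher, against 23% of all bins, and 4 were lower, against 14.6%. The lower bins were 5741 to 5750 in the loop with a log2 change of -2.53 ± 0.38, 5711 to 5720 in MT-TN with -2.14 ± 0.47, 5751 to 5760 in the origin with -1.29 ± 0.42 and 5841 to 5850 in MT-TY with -0.99 ± 0.33. For the L strand, 12 bins were lower, against 30.5%. There the loop bin had -0.55 ± 0.27 and was not called, while the bins on either side of it, 5731 to 5740 and 5751 to 5760, were called lower with -2.15 ± 0.42 and -2.19 ± 0.63.

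**Figure D5:**
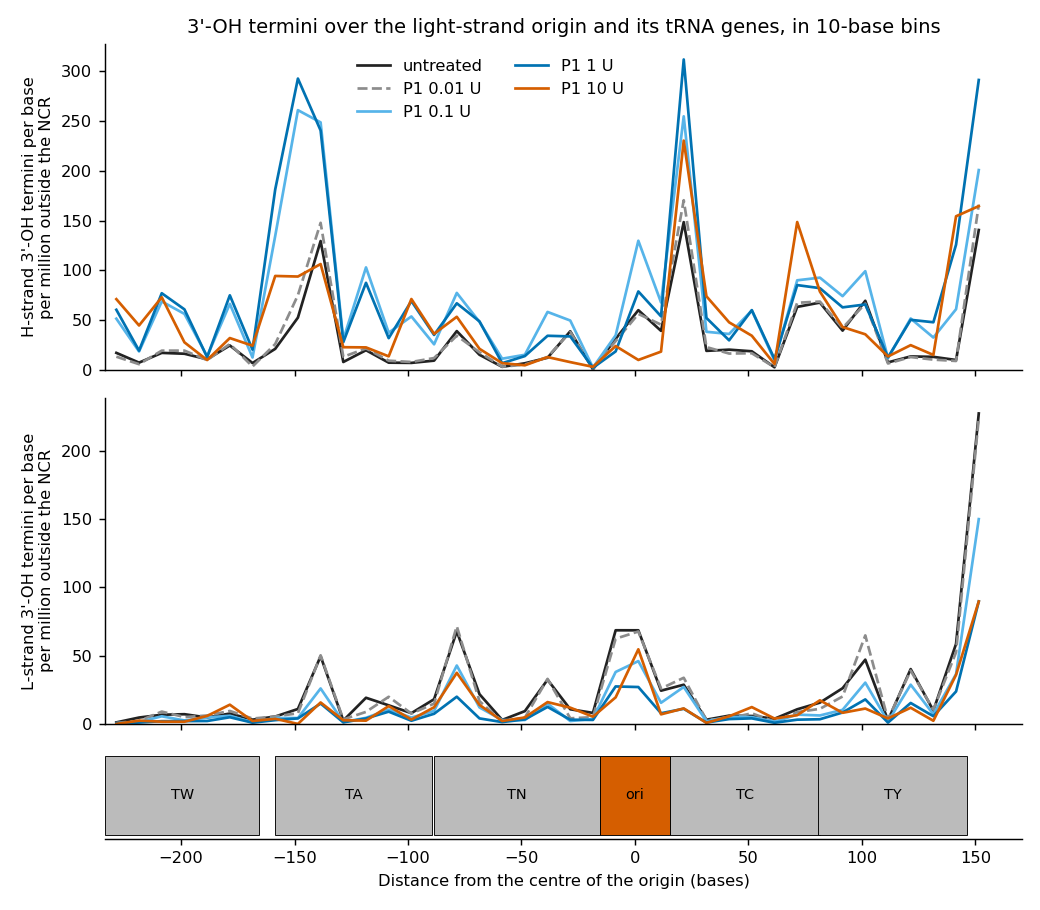
Mean density (termini per base per 1000000 termini outside the NCR, n = 3) in 10-base bins against the distance from the centre of the origin in bases, for the H strand (top) and the L strand (middle), with the 5 tRNA genes and the origin (ori) to scale below. Lines are amounts of P1. On the H strand the 1 U line rises most over MT-TA, the MT-TC border of the origin and from the end of MT-TY on. The 0.1 U line rises most over MT-TA and the same border. On the L strand both of these lines run below the untreated line at the main peaks.

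Termini were not spread evenly. The 10 positions with the most termini held 35.2% ± 3.69 of the H-strand termini of the region in untreated samples and 27.2% ± 0.81 at 1 U. The L-strand top 10 held 37.9% ± 2.57 untreated and 37.9% ± 0.66 at 1 U. Position 5898, between the end of MT-TY and the start of MT-CO1, had the most untreated H-strand termini, with 29, 88 and 120, and rose from 7.25 ± 1.32 to 11.1 ± 2.55 per 10000 outside the NCR at 1 U. Its share of the H-strand termini of the region went from 5.84% ± 0.97 to 3.74% ± 0.51. The L strand had its 3 highest positions at the same place, at 5899, 5900 and 5898, with 7.70 ± 0.21, 7.35 ± 1.96 and 4.04 ± 0.45 per 10000 untreated and 2.82 ± 0.97, 3.28 ± 0.86 and 1.30 ± 0.30 at 1 U.

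Position 5596 in MT-TA came first on the H strand at 1 U, with 338, 332 and 307 termini. It had 11, 49 and 54 untreated, and went from 3.29 ± 0.39 per 10000 to 14.1 ± 1.24 at 0.1 U, 16.02 ± 1.21 at 1 U and 4.65 ± 0.69 with 10 U. Its neighbour 5604, second among untreated H-strand positions, had 6.03 ± 0.82 untreated, 8.33 ± 0.31 with 0.1 U, 6.72 ± 0.67 at 1 U and 2.60 ± 0.85 with 10 U. The positions were chosen by these counts, so their levels are a description.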

How the data were processed

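SSiNGLe-P1 termini were analysed in 15 K562 samples, grouped by the titles that the submitters gave. Per the labels and the methods of the study, reads with the expected tails were aligned with BWA 0.7.12 to hg19, for the mitochondrial files to the mitochondrial genome alone, and the authors deposited the count of termini for each position and strand. The RPM column that the authors deposited beside it, which divides each count by the file's total, was not used. Samples were not pooled, and whether PCR duplicates were removed is not given in the sources used here. Counts of reads without molecular identifiers are not counts of independent molecules, and errors given here are the spread between 3 replicates. The nuclear counts served only for the nuclear copy of the region, which was found with blastn 2.17.0.

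The plus strand of the files was taken as the H strand. Gene positions came from GENCODE 44 on GRCh37, whose mitochondrial genome has 16569 bases against 16571 in the files, and were not converted. Members and lists were chosen with earlier results of these data known. Ratios were tested on the log2 scale with an exact permutation test that exchanged the 5 amounts within replicate numbers (14400 arrangements), because the study matches treated and untreated samples by number. Factors are geometric means over the 3 replicates. Counts per gene or 10-base bin (at least 10 termini over the 15 samples) were tested with edgeR 4.0.16, replicate number as a block, library size the termini outside the NCR and calls at an adjusted p of 0.05. DESeq2 1.42.0 was an alternative. Tested on simulated data for the 3084 bins at 1 U, the fit recovered 98% of bins with a log2 change of 2 and 46% with 1, 86% with -2 and 32% with -1. The simulation changed a small part of the bins, as many up as down, with the same spread for all bins and no replicate effect. In the data 58% of H-strand bins were called higher and 82.4% of L-strand bins lower at 1 U. These rates are therefore not those of the real comparison. Positions, bins and genes named follow from the region itself, and for each strand the 3 positions with the most termini untreated and at 1 U were named.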

Additional observations from a re-analysis of the deposited data

How the results depend on the processing

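Of 78 recomputed ratios, 75 kept their direction and side of the threshold, and the 3 that did not left out a replicate each from the L-strand density of the region over the rest at 10 U, where the factor against untreated ran from 0.583 to 0.694 and the exact permutation p from 0.117 to 0.150. The study pairs samples by number. Deviations of same-numbered samples correlated above 0.1 in 16 of 30 pairs, with a median of 0.107. With different numbers it was 20 of 60 pairs, with a median of -0.0103. The ranges overlapped, from -0.355 to 0.701 for the same number and from -0.582 to 0.432 for different numbers. Without the replicate block the H-strand ratio of the origin over the 5 tRNA genes kept its factor of 0.460 at 1 U, with a permutation p of 1e-05, the smallest that the random exchanges can give, and no call of a member or ratio was changed by dropping the block, while the 10-base bins of the region called higher on the H strand went from 78.9% to 76.3% at 1 U and from 36.8% to 39.5% at 10 U. With all mitochondrial termini as the library size, the members called lower at 10 U went from 1 to 0 on the H strand and from 5 to 0 on the L strand, where the log2 change turned to 0.42 for MT-TN, 0.46 for MT-TC, 0.022 for MT-TY and 0.14 for the origin. Leaving out a replicate gave 1 to 4 members lower on the L strand at 10 U, the 1 without replicate 2. Of the 10-base bins of the region, those called lower on the H strand at 1 U went from 2.63% to 0% with DESeq2, TMM or all mitochondrial termini, to 5.26% in bins of 20 bases, and to 0% to 2.63% without a replicate. On the L strand at 1 U, 73.7% were lower, 44.7% with DESeq2, 47.4% with TMM and 13.2% with all mitochondrial termini. At 10 U, 36.8% were higher on the H strand, 63.2% with TMM, 73.7% with all mitochondrial termini and 57.9% in bins of 20 bases. Those lower at 10 U were 10.5% on the H strand, 5.26% with DESeq2 or TMM, 2.63% with all mitochondrial termini and 5.26% to 10.5% without a replicate, and 31.6% on the L strand, 2.63% with all mitochondrial termini, 52.6% in bins of 20 bases and 15.8% to 23.7% without a replicate. The cause of these moves was not tested, beyond the larger counts in wider bins. The filter on T-rich flanks was not run, since it needs a genome of the files' build. At 10 U, depth limits the origin to 13 to 29 termini per strand and sample.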
